A study of Caenorhabditis elegans with 6 samples.

Results

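The histone variant genes of Caenorhabditis elegans examined here were the H3.3 family genes his-69, his-70, his-71, his-72, his-73 and his-74, the H2A.Z gene htz-1, and the CENP-A genes hcp-3 and cpar-1. They were taken as the rows with exactly these names in tables of small RNA signal, 9 of 46761 features, and all 9 names were found in each of the 3 tables. The tables cover the 22G, 26G and 21U classes of small RNA. Total RNA came from whole gravid adults, pooled per culture, of strain BCN1050. This is a single transgenic line in the N2 background that carries unc-119(ed3) III and the transgene crgIs1002, in which the promoter of daf-21 drives mCherry with the unc-54 3'UTR next to an unc-119(+) copy. Every library carried this genotype, and all sequenced worms had themselves grown on OP50 bacteria at 20 °C. The 3 High libraries came from F2 worms whose P0 grandparents were kept at 25 °C, and the 3 Low libraries from F2 worms whose P0 grandparents were kept at 16 °C. In both groups P0 worms were moved to 20 °C as L4 larvae at 12 per plate, the F1 was bleached after 4.5 days, and F2 L1 larvae were plated at 1000 per plate and grown for 72 hours. The submitters name the samples biological replicates, and p-values measure the spread between these samples.

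Histone variants replace canonical histones outside of DNA replication and give a nucleosome special properties. H3.3 is enriched in transcribed chromatin, H2A.Z sits at promoters and at the start of genes, and CENP-A builds the centromere, which in this worm runs along the whole length of each chromosome. The 22G RNAs are secondary small RNAs that RNA-dependent RNA polymerases make on target transcripts, and part of them, bound by the Argonaute CSR-1, map to genes expressed in the germline. The 26G RNAs are primary small RNAs that work with ERGO-1, ALG-3 or ALG-4. PRG-1 binds the 21U RNAs, which are the piRNAs of the worm. The sources used here do not give how reads were assigned to a class, to a strand or to a copy of a repeated gene, nor the genome build, so positions below are limited to chromosomes and neighbours in Ensembl release 115 (WBcel235).

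Values are normalized counts, which are read counts divided by 1 size factor per library, and values of single libraries are listed in the order of replicates 1, 2 and 3. Per library, the 22G class held 1380170 to 2685999 reads, the 26G class 18704 to 37706 and the 21U class 37630 to 59648. These totals are sums over all features. Many features hold identical values, so a read may be counted more than once in them. In the 26G class Low replicate 1 stood apart, with a normalized total of 57142 against 17491 to 25760 in the other 5 libraries. Low replicate 1 was also the highest in the 21U class, at 59360 against 41430 to 45567 in the other 5 libraries. It held the fewest 22G reads, 1380170. Features with a mean of at least 5 normalized counts over the 6 libraries were tested with limma on log2(normalized count + 1), High minus Low, and called at a Benjamini-Hochberg adjusted p under 0.05. In the 22G class, 780 of 9402 tested features were called (8.3%), of which 530 were higher in High (5.64%). Of lists of tissue genes, 6 of 6 oocyte, 1 of 6 sperm, 3 of 4 intestine and 2 of 4 embryo genes could be tested for 22G signal, with limma adjusted p of at least 0.199. In small RNA from whole worms, fewer cells that make a small RNA and less of it per cell cannot be told apart.

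22G RNAs over the histone variant genes gave no call between worms descended from 25 °C and from 16 °C grandparents, and most of the signal, over hcp-3, had a narrow interval around no difference. Of the 9 genes 7 could be tested, and limma called 0 of them higher and 0 lower, beside 8.3% of all tested features called, 5.64% higher and 2.66% lower. edgeR and DESeq2 on the recovered reads also called 0, and 1 of the 7, his-73, had an unadjusted p under 0.05, as had 17.6% of all tested features. The High and Low libraries did not overlap for 2 of the 7 genes, his-73 and his-71, both with High above Low. Of all tested features 22.7% did not overlap, and 12.8% had High above Low. The median log2 difference of the 7 was -0.06, against 0.01 over all tested features. Summed over the 9 genes, the signal was 1871, 1799 and 1821 normalized counts in the 3 High libraries, against 1873, 1765 and 1883 in the 3 Low libraries. These sums overlapped and averaged 1830 ± 36.8 in High against 1840 ± 65.6 in Low (SD, n = 3 per group), or 0.0879% ± 0.00104 of all 22G signal in High and 0.0895% ± 0.00343 in Low. The CENP-A genes held 84.2% to 87.2% of the sum in every library.

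**Figure D1:**
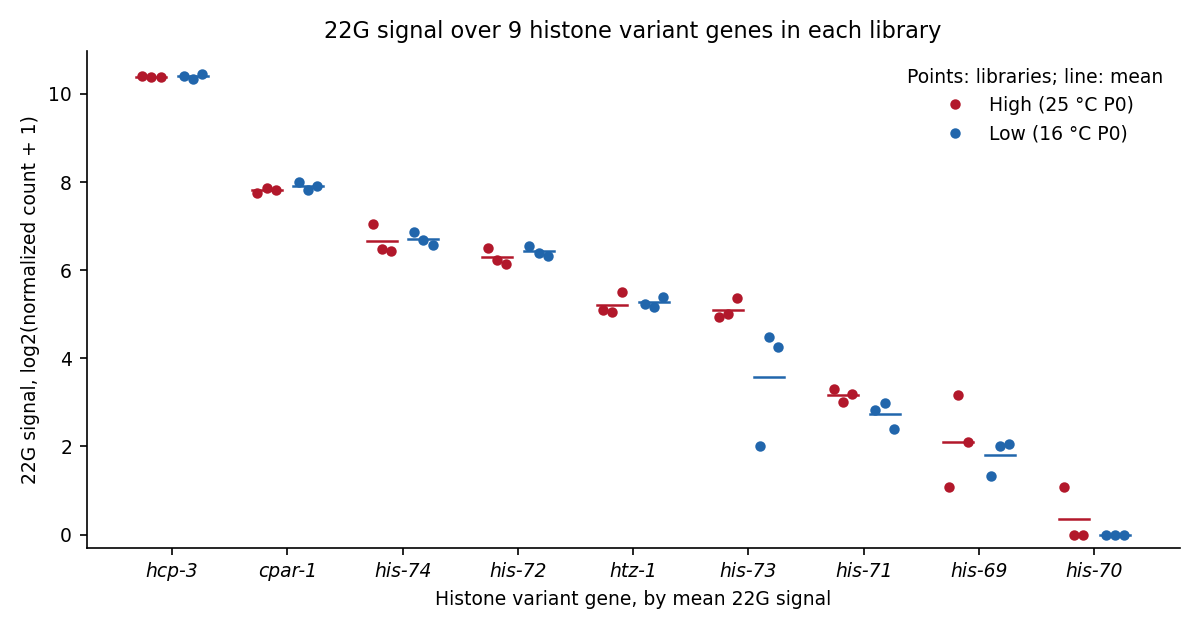
22G signal over each of the 9 genes as log2(normalized count + 1), one point per library and a line at the group mean of these log2 values, with High (3 libraries) left of Low (3 libraries). hcp-3 averages 1344 normalized counts in High and 1352 in Low with little scatter, whereas his-73 is the gene whose groups stand furthest apart, with 1 Low library at 3.03.

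hcp-3 encodes the CENP-A protein that carries the kinetochore at holocentric centromeres. The gene lies on chromosome III, has 4 exons and encodes 288 amino acids. It had 1362, 1325 and 1345 normalized counts of 22G RNA in the 3 High libraries, against 1362, 1290 and 1403 in the 3 Low libraries. The High values lay inside the range of the Low values. The means were 1344 ± 18.4 in High against 1352 ± 57.7 in Low (SD, n = 3 per group), a log2 difference of -0.01 ± 0.06 (SE; 95% interval -0.14 to 0.12; limma adjusted p = 0.971). On the linear scale the interval covers 0.910-fold to 1.09-fold, so larger differences in either direction lie outside it. By normalized count, not divided by length, hcp-3 ranked 257 among the 17873 features with a 22G read.

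The hcp-3 signal was also among the steadiest of its level. Its coefficient of variation over all 6 libraries was 2.86%, where counting error within single libraries alone gives 2.76% (8285 reads over the 6 libraries). Of the 404 other tested features at 0.5 to 2 times its mean level, 20 (4.95%) had a lower coefficient of variation, and their median was 7.64%. This is a description of the 6 libraries, with no test. The 3 tested features whose 22G profile was nearest to that of hcp-3 were somi-1, R02C2.1 and Y53F4B.9, with root-mean-square log2 differences of 0.0661, 0.0693 and 0.0693 over the 6 libraries.

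In the annotation the end of hcp-3 overlaps a short stretch of F58A4.6 on the opposite strand, which averaged 5.72 normalized counts in High against 3.44 in Low. A piRNA locus, 21ur-9360, lies on the opposite strand within exon 2 of hcp-3, and its row held 0 reads in each of the 3 classes in every library. Beside the 8285 reads of hcp-3, neither of these carried more than 11 reads of the 22G class in a library.

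cpar-1, the CENP-A-related gene, lies on the same chromosome and encodes 261 amino acids. It had 214, 233 and 226 normalized counts in the 3 High libraries, against 256, 223 and 239 in the 3 Low libraries. The groups overlapped, with Low replicate 1 the highest library and High replicate 1 the lowest. The means were 224 ± 9.69 in High against 239 ± 16.5 in Low (SD, n = 3 per group), with a log2 difference of -0.09 ± 0.09 (95% interval -0.29 to 0.10; limma adjusted p = 0.689), which is 0.817-fold to 1.07-fold. Its coefficient of variation was 6.37%, against 6.68% from counting alone, and 19.6% of 2092 features of like level were steadier. The nearest profiles were those of C50F2.2, fbxc-38 and F22G12.5, at root-mean-square log2 differences of 0.0633, 0.0723 and 0.0789. The ratio of hcp-3 to cpar-1 signal was 6.38, 5.70 and 5.95 in the 3 High libraries, against 5.32, 5.78 and 5.87 in the 3 Low libraries. The ratios overlapped between the groups, at means of 6.01 ± 0.344 in High against 5.66 ± 0.294 in Low.

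In the H3.3 family, his-74 and his-72 overlapped between the groups. his-74 on chromosome V, which encodes an H3.3-type protein, had 132, 87.9 and 85.1 normalized counts in the 3 High libraries, against 115, 102 and 94.2 in the 3 Low libraries. High replicate 1 was the highest library and the other 2 High libraries were the lowest, so the groups overlapped. Its means were 102 ± 26.4 in High against 104 ± 10.6 in Low, with a log2 difference of -0.06 ± 0.17 (95% interval -0.43 to 0.32; limma adjusted p = 0.924).

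his-72 on chromosome III is a main H3.3 gene and is expressed widely. It had 89.2, 74.6 and 69.6 normalized counts in the 3 High libraries, against 92.4, 83.3 and 79.4 in the 3 Low libraries. Low replicate 1 and High replicate 1 were the highest, and the groups overlapped. The means were 77.8 ± 10.2 in High against 85.03 ± 6.71 in Low, with a log2 difference of -0.13 ± 0.14 (95% interval -0.44 to 0.17; limma adjusted p = 0.723). The snoRNA gene Y49E10.36 lies within his-72 on the same strand and held 1 read of the 22G class over the 6 libraries, beside 495 for his-72.

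his-71 on the X chromosome, the other main H3.3 gene, had little 22G signal. It had 8.81, 7.11 and 8.18 normalized counts in the 3 High libraries, against 6.06, 6.88 and 4.23 in the 3 Low libraries. Each High library lay above each Low library, with the closest at 7.11 in High and 6.88 in Low. These values rest on 8 to 10 reads per library in High and 4 to 9 in Low, and the exact Poisson 95% intervals of all 6 libraries overlapped. The means were 8.03 ± 0.86 in High against 5.72 ± 1.35 in Low, with a log2 difference of 0.44 ± 0.39 (95% interval -0.42 to 1.30; limma adjusted p = 0.661). The proteins of his-71 and his-72 are near-identical, and how reads shared by such genes were counted is not stated.

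his-73 had the widest difference of the 9 genes, but it did not pass the threshold. This short gene on chromosome II has a single exon of 141 nucleotides and encodes 46 amino acids. It had 29.7, 31.1 and 40.1 normalized counts in the 3 High libraries, against 3.03, 21.4 and 18.0 in the 3 Low libraries. All High libraries lay above all Low libraries, and Low replicate 1 lay far below the other 2 Low libraries. Low replicate 1 held 2 reads (exact Poisson 95% interval 0.242 to 7.22, or 0.367 to 10.9 normalized counts), beside 28 and 17 in Low replicates 2 and 3 and 27, 35 and 49 in High replicates 1 to 3. Such intervals cover counting error only.

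The means of his-73 were 33.6 ± 5.64 in High against 14.1 ± 9.77 in Low (SD, n = 3 per group). The log2 difference was 1.52 ± 0.54 (95% interval 0.33 to 2.71; limma adjusted p = 0.148). Without Low replicate 1 the difference was 0.74 (limma adjusted p = 0.112), and without the filter on low values the gene passed, with the same difference at a limma adjusted p of 0.0353. Over all 18 alternatives its adjusted p ranged from 0.0353 to 0.470.

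In the annotation his-73 lies wholly inside an exon of W09H1.4 on the same strand, so reads of the 2 genes over this stretch cannot be told apart. W09H1.4 averaged 2084 ± 121.9 normalized counts in High against 2308 ± 93.9 in Low (log2 difference -0.15 ± 0.06, limma adjusted p = 0.228), with 13518 reads over the 6 libraries, beside 158 for his-73. Over the whole of W09H1.4 the High libraries thus lay below the Low libraries, but only just, with the closest at 2225 in High and 2227 in Low. This order is opposite to that over his-73, and neither gene was called.

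his-69 and his-70, which are neighbours on one strand of chromosome III, stayed under the minimum for a test. his-69 had 1.101, 7.99 and 3.27 normalized counts in the 3 High libraries, against 1.52, 3.06 and 3.18 in the 3 Low libraries, from 22 reads in all. Its highest and its lowest value were both High libraries, and the groups overlapped. his-70 had a single read, in High replicate 1 (1.101 normalized counts), and 0 in the other 2 High libraries and in all 3 Low libraries.

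htz-1 on chromosome IV is the only H2A.Z gene of the worm. It had 33.03, 31.98 and 44.2 normalized counts of 22G RNA in the 3 High libraries, against 36.4, 35.1 and 41.3 in the 3 Low libraries. High replicate 3 was the highest library, the other 2 High libraries were the lowest, and the groups overlapped. The means were 36.4 ± 6.77 in High against 37.6 ± 3.25 in Low (SD, n = 3 per group), with a log2 difference of -0.06 ± 0.19 (95% interval -0.48 to 0.37; limma adjusted p = 0.929).

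**Figure D2:**
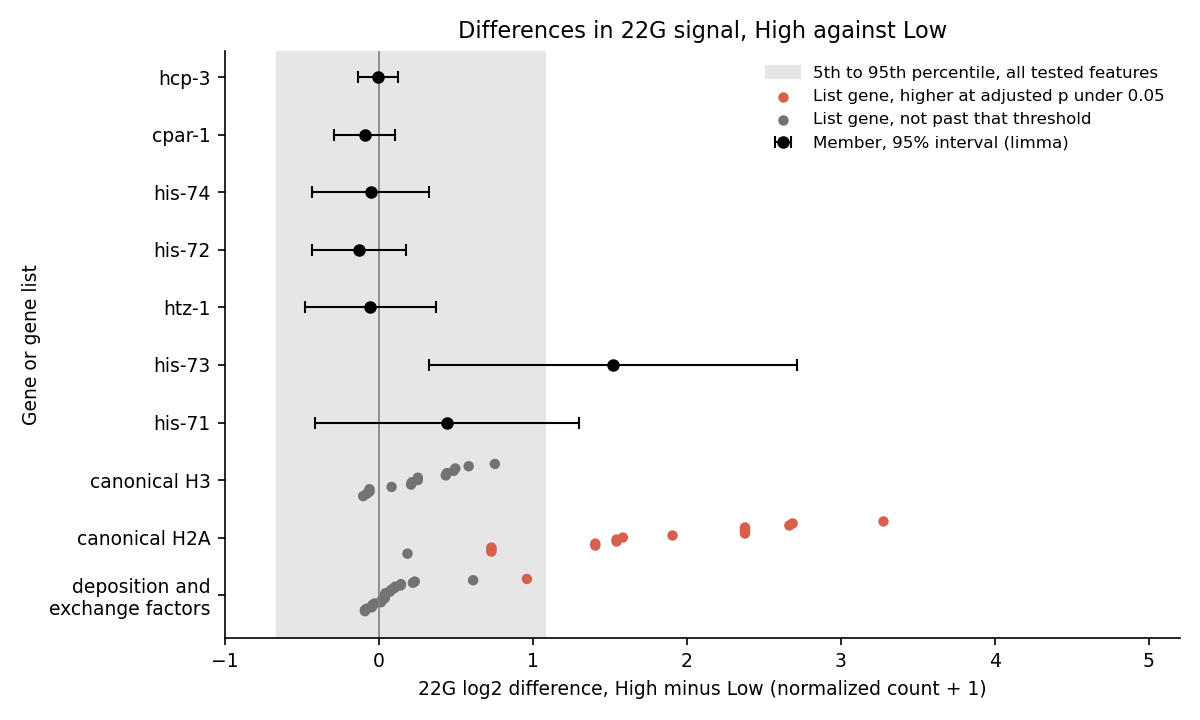
Log2 difference in 22G signal, High minus Low, on the log2(normalized count + 1) scale. Black points with bars are the 7 tested variant genes with 95% intervals from limma, dots below are single genes of 3 lists (red where called higher, grey where not), and the grey band holds the middle of all 9402 tested features, from -0.66 to 1.08. The interval is narrowest for hcp-3 (-0.14 to 0.12) and widest for his-73 (0.33 to 2.71), while 16 of 17 canonical H2A genes and 1 of 26 deposition factors are red.

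Per kilobase of annotated exon, the 22G levels of the 9 genes spanned a wide range. hcp-3 had a mean of 1329 normalized counts per kb over the 6 libraries (range 1272 to 1384), followed by cpar-1 at 258 (238 to 286), his-74 at 177 (147 to 228), his-73 at 169 (21.5 to 284) and his-72 at 128 (109 to 145). Then came htz-1 at 50.4 (43.6 to 60.2), his-71 at 11.6 (7.16 to 14.9), his-69 at 8.73 (2.87 to 20.8) and his-70 at 0.453 (0 to 2.72). Neighbours in this order did not overlap in range between hcp-3 and cpar-1, cpar-1 and his-74, his-72 and htz-1, htz-1 and his-71, or his-69 and his-70. Ranges of his-74 and his-73, of his-73 and his-72, and of his-71 and his-69 overlapped. These ranges pool the 6 libraries and do not compare genes within a library. In the 3 High libraries his-73 had 211, 220 and 284 per kb, against 140, 117 and 109 for his-72. In the 3 Low libraries it had 21.5, 152 and 128, against 145, 131 and 124 for his-72. Differences between these neighbours were not tested. By coding length in place of exon length, his-72 and his-73 changed places and the other 7 genes kept theirs. The main H3.3 genes thus differed from each other in 22G level per kb, his-72 at 128 and his-71 at 11.6 with ranges that did not overlap.

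**Figure D3:**
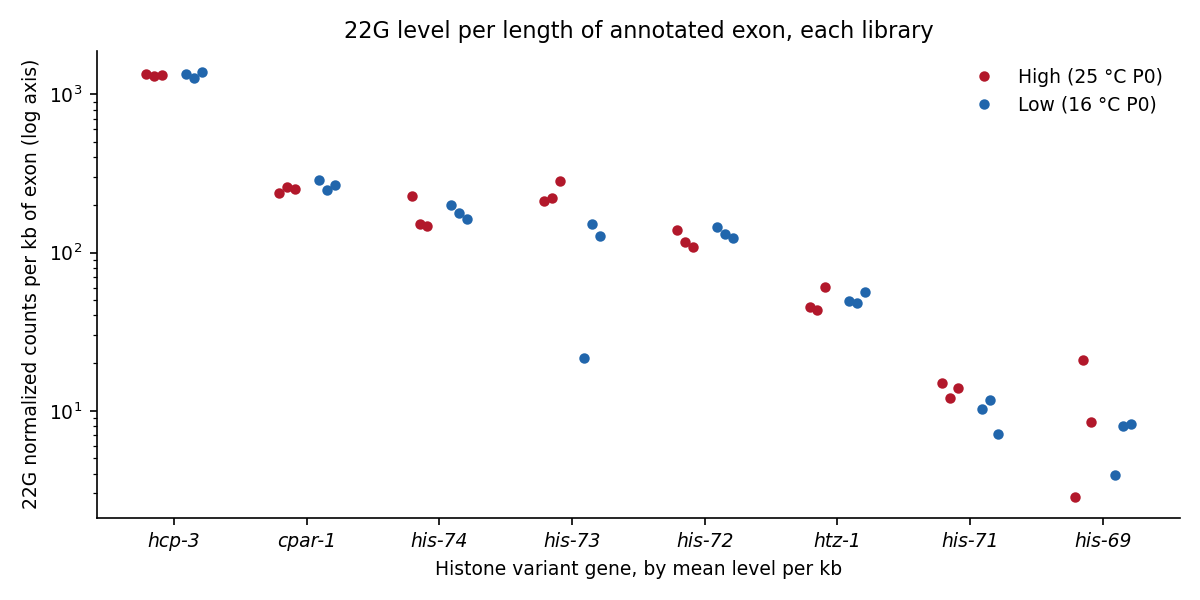
22G level per kilobase of annotated exon on a log axis for 8 of the 9 genes, one point per library, High left of Low. his-70, at 0 in 5 of 6 libraries, is left out; hcp-3 lies between 1272 and 1384 in every library, and his-71 and his-69 lie between 2.87 and 20.8.

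The canonical histone genes are the replication-dependent relatives of these variants. Of 15 tested canonical H3 genes, limma called 0 (edgeR and DESeq2 also 0), with a median log2 difference of 0.25 and a range of -0.10 to 0.75, beside 8.3% called and a median of 0.01 over all tested features. 4 of these 15 had an unadjusted p under 0.05, beside 17.6% of all tested features. For 5 of the 15 the High libraries lay above the Low libraries without overlap, beside 12.8% of all tested features. Without Low replicate 3, limma called 1, his-63 (log2 difference 0.97, adjusted p = 0.0463), which is named with its values known. his-25, the canonical H3 gene with the most 22G signal, had 67.5 ± 9.58 normalized counts in High against 63.5 ± 4.17 in Low (limma adjusted p = 0.858), and his-9 had 43.8 ± 6.85 in High against 45.7 ± 6.40 in Low (limma adjusted p = 0.920). Canonical H3 copies are near-identical, so the copy of origin of a read is uncertain. his-9 and his-13 hold the same values, as do his-27 and his-49, which leaves 13 distinct genes. his-55 and his-63, both among the 5 without overlap, hold nearly the same values. Their means were 37.4 and 38.3 in High against 25.2 and 23.2 in Low, so the 5 may share reads.

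22G signal was higher in High over most canonical H2A genes, the relatives of htz-1. Of 17 tested, 16 were higher in High, or 10 of 11 with genes of identical values counted once, at a median log2 difference of 1.58, beside 5.64% of all tested features called higher. Over the 17 genes the log2 differences ranged from 0.18 to 3.28. his-47, named for its high mean signal, had the smallest difference of the 16 called genes. It had 258, 258 and 280 normalized counts in the 3 High libraries, against 173, 165 and 141.8 in the 3 Low libraries, with no overlap, at a log2 difference of 0.73 ± 0.10. The 17th, his-35, had 303 ± 29.0 in High against 267 ± 23.0 in Low (limma adjusted p = 0.394). Which near-identical H2A copy a read came from is uncertain. Genes with nearly the same values were still counted apart, such as his-47 at means of 265 in High and 160 in Low and his-57 at 258 and 155. The 10 called after merging may therefore share reads. The difference between htz-1 and the H2A genes was not tested.

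Among genes of the machinery that deposits or exchanges these variants, 22G signal was higher in High over ssl-1. Of 26 genes, all of them tested, limma called 1 higher and 0 lower (3.85%, beside 8.3% of all tested features), and the median log2 difference was 0.04. ssl-1 encodes the p400/SWR1-type ATPase that is known to exchange H2A.Z into chromatin. It had 471, 394 and 412 normalized counts in the 3 High libraries, against 206, 223 and 224 in the 3 Low libraries. All High libraries lay far above all Low libraries, at means of 426 ± 40.3 in High against 218 ± 10.2 in Low (SD, n = 3 per group). The log2 difference was 0.96 ± 0.09 (95% interval 0.76 to 1.16; limma adjusted p = 3.08e-05). ssl-1 stayed called in all 18 alternatives, with adjusted p between 9.57e-12 and 0.00651 and differences between 0.89 and 1.01.

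Partners of SSL-1 in H2A.Z exchange were not called. trr-1, the TRRAP gene, had 509 ± 12.9 normalized counts in High against 542 ± 22.7 in Low (limma adjusted p = 0.584), with the 3 High libraries below the 3 Low libraries. Of the factors that handle H3 and H3.3, the ASF1 gene unc-85 had 1079 ± 58.4 in High against 1018 ± 58.0 in Low (limma adjusted p = 0.630), and the ATRX gene xnp-1 had 778 ± 11.6 in High against 761 ± 69.7 in Low (limma adjusted p = 0.874). The CENP-C gene hcp-4, whose protein works beside CENP-A at the kinetochore, had 633 ± 37.1 in High against 603 ± 77.0 in Low (limma adjusted p = 0.776). High and Low libraries did not overlap for 5 of the 26 genes, beside 22.7% of all tested features. For 4 of these 5, ssl-1 included, High lay above Low, beside 12.8% of all tested features, and for trr-1 High lay below Low.

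**Figure D4:**
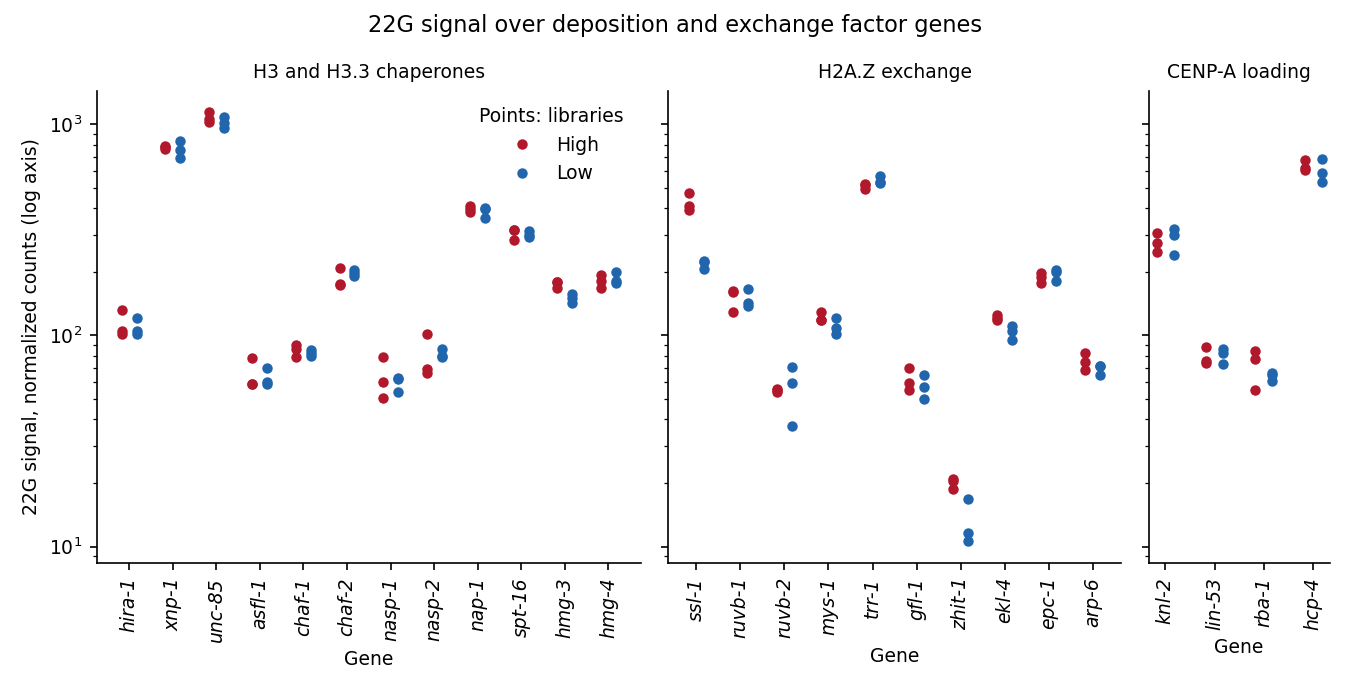
22G signal in normalized counts on a log axis for 26 genes of histone variant deposition and exchange, one point per library, High left of Low, in 3 panels by role. ssl-1 stands out with 394 to 471 in High and 206 to 224 in Low, whereas unc-85 and xnp-1, the highest H3 and H3.3 factors, overlap between the groups.

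The 26G class held almost nothing over the 9 genes. There were 3 reads in all, 1 over his-74 in High replicate 3 and 1 each over his-70 and htz-1 in Low replicate 1. The other 6 genes had 0 of 147085 reads, summed over all features and the 6 libraries. This allows a share of up to 0.00204% of that sum for each (3 reads, counting error only). Where the sum counts reads more than once, the limit as a share of distinct reads is higher. No gene reached the minimum for a test. In the whole class limma called 0 of 272 tested features, with 3 (1.1%) at an unadjusted p under 0.05, 0 called by edgeR and 12 by DESeq2.

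The 21U class held 41 reads over the 9 genes, of which 33 were over hcp-3. hcp-3 had 4.40, 7.99 and 4.09 normalized counts in the 3 High libraries, against 6.06, 5.35 and 4.23 in the 3 Low libraries, and the groups overlapped. Its means were 5.50 ± 2.17 in High against 5.21 ± 0.92 in Low (SD, n = 3 per group), with a log2 difference of 0.03 ± 0.46 (95% interval -0.997 to 1.05; limma adjusted p = 0.983). It was the only gene of the 9 that reached the minimum for a test in this class, where 1 of 592 features was called (0.169%) and 31.1% did not overlap between the groups (4.22% with High above Low). Over all tested features of the 21U class the median log2 difference was -0.38. cpar-1 had 4 reads, his-72 had 3 and his-74 had 1. The other 5 genes had 0 of 279046 reads summed over all features, which allows a share of up to 0.00108% of that sum for each. As a share of distinct reads this limit may be higher too.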

How the data were processed

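The deposited tables hold a signal per feature and library for 3 small RNA classes, which the authors made by dividing read counts by a size factor per library. Per the labels' protocols, 1 µg of total RNA gave inserts of 18 to 36 bp, read as 50 nt. Per the submitters' processing notes the tools included Bowtie 1.1.1, cutadapt 1.7.1, DESeq2 1.8.1 and featureCounts 1.4.6. Whole reads were recovered from the steps of each library (100% of values within 0.01 reads).

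limma 3.58.1 in R 4.3.3 (trend, two-sided, pseudocount 1, minimum mean 5) was fitted over each whole class and adjusted over all its tested features. The fit was also run on simulated counts, with independent features and the same spread setting for all. These settings differ from the data, so that run does not bear on the calls given here. edgeR 4.0.16 and DESeq2 1.42.0 on recovered reads, other pseudocounts, filters, scalings and thresholds, a replicate block and each library left out were the alternatives. Levels per kb use Ensembl 115 exon lengths.

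The genes examined and the lists were chosen with earlier results of these data known. Named are the 9 genes; per canonical list the 2 highest means and up to 3 called genes; every called deposition factor and the 4 highest means; and the 3 features most like hcp-3 and cpar-1. The called H2A genes his-61, his-3 and his-7 appear only as unlabelled points in a plot. The deposition factors zhit-1, ekl-4 and hmg-3 are also named, because their groups did not overlap. Genes that overlap a variant gene were taken from the annotation. Replicate numbers were not used to pair the libraries in the main fit.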

Additional observations from a re-analysis of the deposited data

How the results depend on the processing

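Of the 9 variant genes none was called in the 22G class under the alternatives run, except his-73 without a filter on low values (1 gene). Deviations from group means were little correlated between High and Low libraries of the same replicate number (0.0343, 0.0463 and 0.0196). Between libraries of different number the correlations were -0.0825 to 0.0379, and such values cannot exclude a pairing. A limma fit with the replicate block called 782 of all 22G features in place of 780. It called 0 of the variant genes (his-73 at an adjusted p of 0.0672), and 0 in place of 1 in the 21U class. limma without trend called 524 of all 22G features, and leaving out each library called 563 to 752. The 16 called canonical H2A genes became 10 with identical genes counted once. Leaving out single libraries gave 0 to 1 called canonical H3 genes, the 1 being his-63 without Low replicate 3 (0.97, adjusted p 0.0463; chosen after its values were seen). In the 26G class the 0 calls became 12 with DESeq2, and 0 to 1 with single libraries left out (1 without Low replicate 1). In the 21U class the 1 call became 28 without a filter, 2 at a minimum mean of 20, 69 with DESeq2, 23 at an adjusted p under 0.1 and 2 with identical features counted once. With single libraries left out it became 0 to 33, namely 33 and 20 when Low replicate 1 or Low replicate 2 was omitted and 0 when High replicate 2, High replicate 3 or Low replicate 3 was. Differences near 0 changed sign when single libraries were left out, and none of these was called. In the 22G class they ranged from -0.201 to 0.0263 for htz-1, -0.257 to 0.0574 for his-74, -0.0412 to 0.0199 for hcp-3, -0.160 to 0.0624 for his-9, -0.0308 to 0.146 for his-25, -0.0288 to 0.103 for xnp-1 and -0.00859 to 0.172 for hcp-4, and in the 21U class from -0.234 to 0.177 for hcp-3. The causes were not tested. Few reads limit what can be said of his-69, his-70 and his-71 in the 22G class and of all 9 genes in the 26G and 21U classes.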

Other observations

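The protein-coding gene nearest to his-72 in the annotation, Y75B8A.33 on the same strand, was called while his-72 was not. It had 419, 352 and 398 normalized counts of 22G RNA in the 3 High libraries, against 250, 186 and 270 in the 3 Low libraries. All High libraries lay above all Low libraries, at means of 390 ± 34.6 in High against 235.4 ± 43.6 in Low (SD, n = 3 per group; log2 difference 0.74 ± 0.13, limma adjusted p = 0.00357). It was named with its values known, and the difference between it and his-72 was not tested.

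ssl-1 also had reads in the 21U class, 3, 4 and 1 in the 3 High libraries and 0 in each Low library. It stayed under the minimum for a test there, and it is named with its values known. ekl-4, of the same list, had 1, 1 and 2 reads in the 3 High libraries and 0 in each Low library, also under the minimum. For the rest of the list the groups overlapped in this class. Of the tested 21U features 4.22% had all High libraries above all Low libraries. That share does not cover features under the minimum, such as these, for which it was not taken.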
